A study of Homo sapiens with 16 samples.

Results

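Polyamine synthesis and its control were followed through 10 genes, found by symbol among the 26229 genes of the count table, over all 16 RNA-seq libraries of 2 human keratinocyte-lineage lines. The genes were ODC1, the antizyme genes OAZ1 and OAZ2, the antizyme inhibitor genes AZIN1 and AZIN2, AMD1, SRM, SMS, SAT1 and PAOX. A431 is an epidermoid carcinoma line and HaCaT is an immortalised skin keratinocyte line. In each line the siRNA arm held 1 library from cells given control siRNA (siCTRL) and 3 from cells given siRNA against YAP1 (siYAP), and the vector arm held 1 library from cells with an empty expression vector and 3 from cells with a constitutively active YAP1 mutant (YAP5SA). All cells were grown in DMEM with serum. The siRNA was given 2 times, 24 hours apart, with RNA taken 48 hours after the later dose, and the vectors were transfected too, at times not given in the sources used here. Each control was 1 library, so the spread between control cultures was not measured. The labels do not say whether the triplicates were separate cultures, whereas the study's methods call them biological, and p-values measure the spread between these libraries. YAP1 is a transcriptional coactivator that the Hippo pathway restrains, and the comparisons ask which of these genes differed when it was depleted or made constitutively active.

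Polyamines (putrescine, spermidine and spermine) are small cations that bind RNA, and growing cells need them for translation. Ornithine decarboxylase, the product of ODC1, makes putrescine from ornithine and is a short-lived enzyme. Antizymes (OAZ1, OAZ2) bind it and send it to the proteasome without ubiquitin, and antizyme inhibitors (AZIN1, AZIN2) take antizyme away from it. AMD1 supplies the aminopropyl group through decarboxylated S-adenosylmethionine, SRM uses it to make spermidine and SMS to make spermine. SAT1 acetylates spermidine and spermine for export or breakdown, and PAOX oxidises the acetylated forms back towards putrescine. Antizyme is made by a polyamine-driven frameshift, and ODC1, AMD1 and SAT1 are also controlled in translation and protein turnover, none of which a count of mRNA shows.

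RefSeq promoter windows (GRCh38.p14, 300 bases from 250 before a start site to 50 from it on) were found for 7 of the 10 genes, in 10 windows. They were searched on both strands for CACGTG, the E-box bound by MYC and related factors, which reads the same on either strand, and for GGAATG or its complement CATTCC, the core bound by TEAD, the DNA-binding partner of YAP1. A match of one is never a match of the other. The 2 windows with a match are shown because no other of the 10 held either motif. Both lie on the minus strand and are read 5′ to 3′ along the gene, with CACGTG in capitals.
ODC1, chr2:10447963-10448262: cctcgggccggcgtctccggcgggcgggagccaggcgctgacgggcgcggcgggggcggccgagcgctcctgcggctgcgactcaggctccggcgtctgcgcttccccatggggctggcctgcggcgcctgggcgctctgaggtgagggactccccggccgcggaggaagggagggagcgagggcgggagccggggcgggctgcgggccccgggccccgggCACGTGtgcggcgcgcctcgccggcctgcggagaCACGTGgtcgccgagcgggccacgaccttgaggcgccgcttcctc
SRM, chr1:11059969-11060268: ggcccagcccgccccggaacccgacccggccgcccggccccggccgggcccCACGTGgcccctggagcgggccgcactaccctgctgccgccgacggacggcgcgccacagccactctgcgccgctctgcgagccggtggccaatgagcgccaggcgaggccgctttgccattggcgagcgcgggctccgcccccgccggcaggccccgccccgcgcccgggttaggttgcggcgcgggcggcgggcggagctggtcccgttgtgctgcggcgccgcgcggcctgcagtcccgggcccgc
The ODC1 window, at the downstream of its 2 annotated starts, held CACGTG 29 bases before and 5 bases after that start, and in the GENCODE v29 annotation both copies lay in an intron of 1 of 2 ODC1 transcripts and in no exon. The other ODC1 window held none. In the SRM window the motif lay 199 bases before the start, outside the annotated transcript. CACGTG was found in 7.26% of all 35116 windows and in 9.02% of the windows of tested genes, and GGAATG or CATTCC, found in 14.03% of all windows and 11.7% of those of tested genes, was in 0 of the 10 windows. These matches are letters in a window, and binding was not measured.

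The libraries held 18.1 to 46.8 M estimated counts (M, 1e6), with a median of 26.6 M. Levels are given as CPM (counts per 1e6 counts of a library) after TMM scaling. YAP1, the targeted gene, was at 94.3 CPM with siCTRL and at 5.34, 6.998 and 5.04 CPM under siYAP in A431, and at 254 CPM against 23.2, 21.6 and 21.8 CPM in HaCaT. The vector arm went from 124 CPM with the empty vector to 1495, 3245 and 2940 CPM with YAP5SA in A431, and from 423 to 7549, 22255 and 10069 CPM in HaCaT, where these reads do not separate mutant from endogenous YAP1. In edgeR's quasi-likelihood test YAP1 was called for siYAP in both lines (FDR 0.000761 and 0.000894) and for YAP5SA in HaCaT (FDR 0.00208), but not for YAP5SA in A431 (FDR 0.197). YAP5SA replicate 1 had the lowest YAP1 of its triplicate in both lines. By chi-square per degree of freedom over genes, it stood apart in A431 (78.5 and 72.7 from replicates 2 and 3, which were 6.81 from each other), while in HaCaT replicate 2 was the most distant (148 and 110, against 72.4 between 1 and 3). Results of the vector arm are given with and without the libraries numbered 1, a choice made after seeing the data. Where replicate 1 lay nearest the empty vector or across it, a larger change without it follows from that choice. All 7 keratinocyte markers were present in every library, with KRT14 lowest at 134 CPM, and COL1A2, PDGFRB, PTPRC and CD3E were at 0.255 CPM or below. Other markers were detected, reaching 51.8 CPM for CDH5, 14.2 for DCN, 12.7 for LUM, 7.10 for VWF, 5.69 for COL1A1, 3.62 for CD14 and 1.68 for PECAM1. The lowest counts of any of the 10 genes were 23 and 36 reads, both of AZIN2 in YAP5SA libraries, and all 10 passed the filter of a mean above 10 counts. ODC1 and AMD1 have processed pseudogene copies, and the strand of the libraries is not given in the sources used here, so some of their reads may be shared.

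With YAP1 depleted, ODC1 and AMD1 were below control and SAT1, OAZ2 and AZIN2 above control in every siYAP library of both lines. Each control was 1 library, and the share of all genes on the same side in both lines was not counted. The list is therefore a description without a background share. For 14.5% of all tested genes, all siYAP libraries lay on opposite sides of control in the 2 lines, a share that does not stand in for it. A gene was called at a false discovery rate (FDR) under 0.05 and a mean level above 1 on the log2 CPM scale, in edgeR's quasi-likelihood test fitted over all 16 libraries with Benjamini-Hochberg adjustment over 14673 genes. In A431 0 of the 10 genes were called, where 5.60% of all genes were (1.81% higher and 3.78% lower). An unadjusted p under 0.05 was found for 2 of the 10 and for 3264 of 14673 genes, and DESeq2 called 2, OAZ2 and SAT1. AMD1 and SMS were called lower in HaCaT, 2 of 10 against 5.67% of all genes (2.37% higher and 3.30% lower). Over both lines AMD1 fell and OAZ2 rose, 2 of 10 against 13.0% of all genes (5.30% higher and 7.68% lower). In counts from whole cultures, fewer cells of a type and less RNA per cell cannot be told apart.

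The fit over all libraries gives the siRNA arm the spread of the YAP5SA triplicates as well. For ODC1 the SD of log2 CPM was 0.83 and 0.61 among the YAP5SA libraries of A431 and HaCaT, and 0.059 and 0.18 among the siYAP libraries. A fit to the siRNA libraries alone, chosen after seeing the data, called 4 genes in A431 (OAZ2, AZIN2 and SAT1 higher, ODC1 lower) where 15.6% of all genes were called. In HaCaT it called 4 lower (ODC1, AMD1, SRM and SMS) against 14.1% of all genes. Over both lines it called 6 of 10, OAZ2, AZIN2 and SAT1 higher and ODC1, AMD1 and SMS lower, against 23.9% of all genes.

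With YAP5SA, SRM, AMD1 and SMS were above the empty vector in every library of both lines. The share of all genes on the same side in both lines was not counted here either, so this list also has no background share. The margin could be small, as for AMD1 in HaCaT replicate 1 (174 CPM against 169.8 CPM). For 18.9% of all tested genes, all YAP5SA libraries lay on opposite sides of the single empty vector library in the 2 lines, a share that does not stand in for it. In A431 0 of the 10 genes were called and 0% of all genes by edgeR. An unadjusted p under 0.05 was found for 828 of 14673 genes, among them ODC1, AMD1 and SRM. DESeq2 also called 0 of the 10. SRM rose in HaCaT, 1 of 10 against 13.6% of all genes (6.99% higher and 6.64% lower). It was also the 1 gene called over both lines, where 2.04% of all genes were (1.38% higher and 0.661% lower).

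Leaving out replicate 1 of A431 alone called 0 of the 10 for YAP5SA in A431, and leaving out replicate 1 of HaCaT alone called SRM in HaCaT, as with all libraries. With both libraries numbered 1 left out, ODC1 and AMD1 were called higher and SAT1 lower in A431 (3 of 10, against 4.35% of all genes). ODC1, OAZ2 and SRM were then higher and SAT1 lower in HaCaT (4 of 10, against 27.1%). Over both lines 6 were called, with ODC1, AMD1, SRM and SMS higher and AZIN2 and SAT1 lower, against 21.1% of all genes. Same-numbered YAP5SA libraries of the lines deviated together only weakly (r 0.280, 0.116 and 0.101), and A431 replicate 2 correlated best with HaCaT replicate 3. The numbers are thus an uncertain pairing. A fit with the replicate number as a block over the YAP5SA libraries called 0 of 10 in A431 (0.0136% of all genes). It called ODC1, OAZ2, SRM and PAOX higher in HaCaT (4 of 10, against 21.5%) and ODC1, AMD1 and SRM higher over both lines (3 of 10, against 9.39%).

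**Figure D1:**
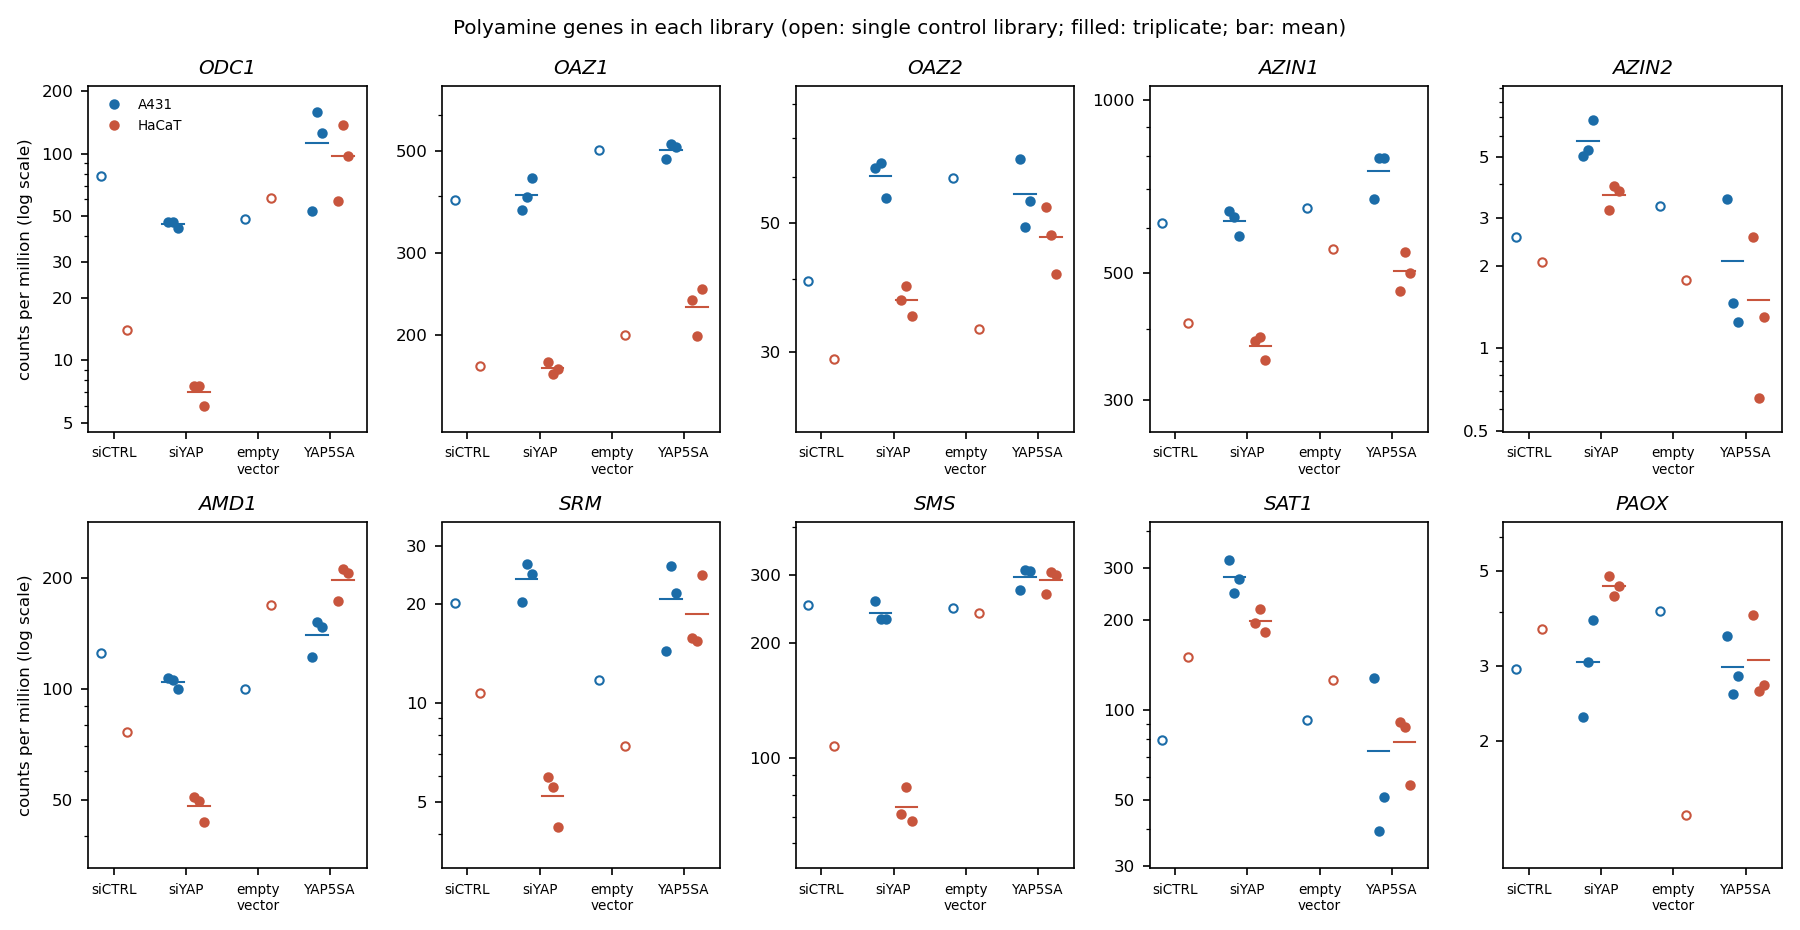
Level of each of the 10 genes in each library (y axis: CPM, log scale, a separate range for each gene; x axis: treatment). Open circles are single control libraries, filled circles the libraries of a triplicate and bars their mean, in blue for A431 and red for HaCaT. ODC1 ran from 6.02 CPM in a HaCaT siYAP library to 159 CPM in an A431 YAP5SA library, and SAT1 from 39.4 to 319 CPM within A431.

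ODC1, the entry enzyme of the pathway, was at 77.9 CPM with siCTRL and at 46.7, 46.5 and 43.4 CPM under siYAP in A431. In HaCaT it was at 13.98 CPM with siCTRL and at 7.51, 7.48 and 6.02 CPM under siYAP. Every siYAP library was below its control. The log2 fold change was -0.77 (SE 0.45, FDR 0.342) in A431, -1.002 (SE 0.50, FDR 0.284) in HaCaT and -0.89 (SE 0.34, FDR 0.1) over both lines, none of them called. With the siRNA libraries alone it was -0.78 (SE 0.14, FDR 0.00394), -1.02 (SE 0.16, FDR 0.00206) and -0.90 (SE 0.11, FDR 0.000195).

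In the vector arm ODC1 was at 48.3 CPM with the empty vector and at 53.0, 159 and 125 CPM with YAP5SA in A431. The HaCaT values were 60.7 CPM and 59.0, 137 and 97.3 CPM. Replicates 2 and 3 lay well above the empty vector in both lines, while replicate 1 was close to it, above in A431 and below in HaCaT. The log2 fold change was 1.22 (SE 0.51, FDR 0.803) in A431, 0.69 (SE 0.49, FDR 0.353) in HaCaT and 0.95 (SE 0.35, FDR 0.148) over both lines. Without both libraries numbered 1 it was 1.56 (SE 0.22, FDR 0.00509) in A431, 0.95 (SE 0.21, FDR 0.00683) in HaCaT and 1.25 (SE 0.15, FDR 0.000487) over both lines. The libraries left out were those nearest the empty vector for ODC1, so these larger changes follow from the choice and are not separate evidence. With replicate 1 of its own line alone left out, ODC1 was not called in either line. With the replicate block over the YAP5SA libraries it was 0.84 (SE 0.12, FDR 0.00239) over both lines. The study named ODC1 and AZIN2 as growth genes after gene set enrichment in these same libraries, so their directions are not independent evidence. It then looked at their expression in skin tissue in the Human Protein Atlas.

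OAZ1 codes for the main antizyme. In A431 it was at 391 CPM with siCTRL, at 373, 398 and 437 CPM under siYAP, at 503 CPM with the empty vector and at 479.7, 519 and 510.3 CPM with YAP5SA. In HaCaT the order was 171, then 175, 164 and 169, then 199.6, then 238, 199 and 251 CPM. Control and treated libraries overlapped in all 4 comparisons, with log2 fold changes between -0.019 (SE 0.14) and 0.20 (SE 0.15), none called.

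OAZ2, a further antizyme gene, was at 39.7 CPM with siCTRL and at 62.2, 63.3 and 55.3 CPM under siYAP in A431. In HaCaT it was at 29.2 CPM and at 36.8, 38.9 and 34.6 CPM. All 6 siYAP libraries were above control, by 0.60 (SE 0.18, FDR 0.0737) on the log2 scale in A431, 0.33 (SE 0.18, FDR 0.337) in HaCaT and 0.47 (SE 0.13, FDR 0.0324) over both lines. In the vector arm OAZ2 was at 59.8 CPM and at 64.5, 49.3 and 54.7 CPM in A431, which overlap, and at 32.9 CPM and 53.4, 47.8 and 40.9 CPM in HaCaT, where all 3 were above the empty vector (0.53, SE 0.18, FDR 0.0683). OAZ2 lay above control after YAP1 depletion in both lines and after YAP5SA in HaCaT. The call over both lines was lost without A431 siYAP replicate 1 (FDR 0.0644) or 2 (FDR 0.0585) and without HaCaT siYAP replicate 1 (FDR 0.0565) or 2 (FDR 0.0543).

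AZIN1, the main antizyme inhibitor, was at 611 CPM with siCTRL and 640.0, 626 and 580.0 CPM under siYAP in A431, and at 409 CPM and 380.5, 386 and 352 CPM in HaCaT. With the empty vector it was at 649 CPM in A431, below its YAP5SA libraries at 672, 794 and 793 CPM, and at 549.6 CPM in HaCaT, above its YAP5SA libraries at 465, 545 and 501 CPM. The YAP5SA changes of 0.21 (SE 0.14, FDR 0.828) and -0.13 (SE 0.14, FDR 0.568) on the log2 scale were not called.

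AZIN2, an inhibitor paralogue known best from brain and testis, was a low gene here. It was at 2.55 CPM with siCTRL and 5.06, 5.31 and 6.84 CPM under siYAP in A431, and at 2.08 CPM and 3.21, 3.94 and 3.77 CPM in HaCaT. All 6 siYAP libraries were above control, and the log2 fold change over both lines was 0.99 (SE 0.48, FDR 0.194), or 0.98 (SE 0.23, FDR 0.0103) in the fit to the siRNA libraries alone. With YAP5SA it was at 3.53, 1.47 and 1.25 CPM in A431, around an empty vector value of 3.31 CPM, and at 2.56, 0.66 and 1.30 CPM in HaCaT, around 1.78 CPM. Replicate 1 was above the empty vector and the other YAP5SA libraries below it in both lines, and without both libraries numbered 1 the change over both lines was -1.07 (SE 0.29, FDR 0.0222).

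**Figure D2:**
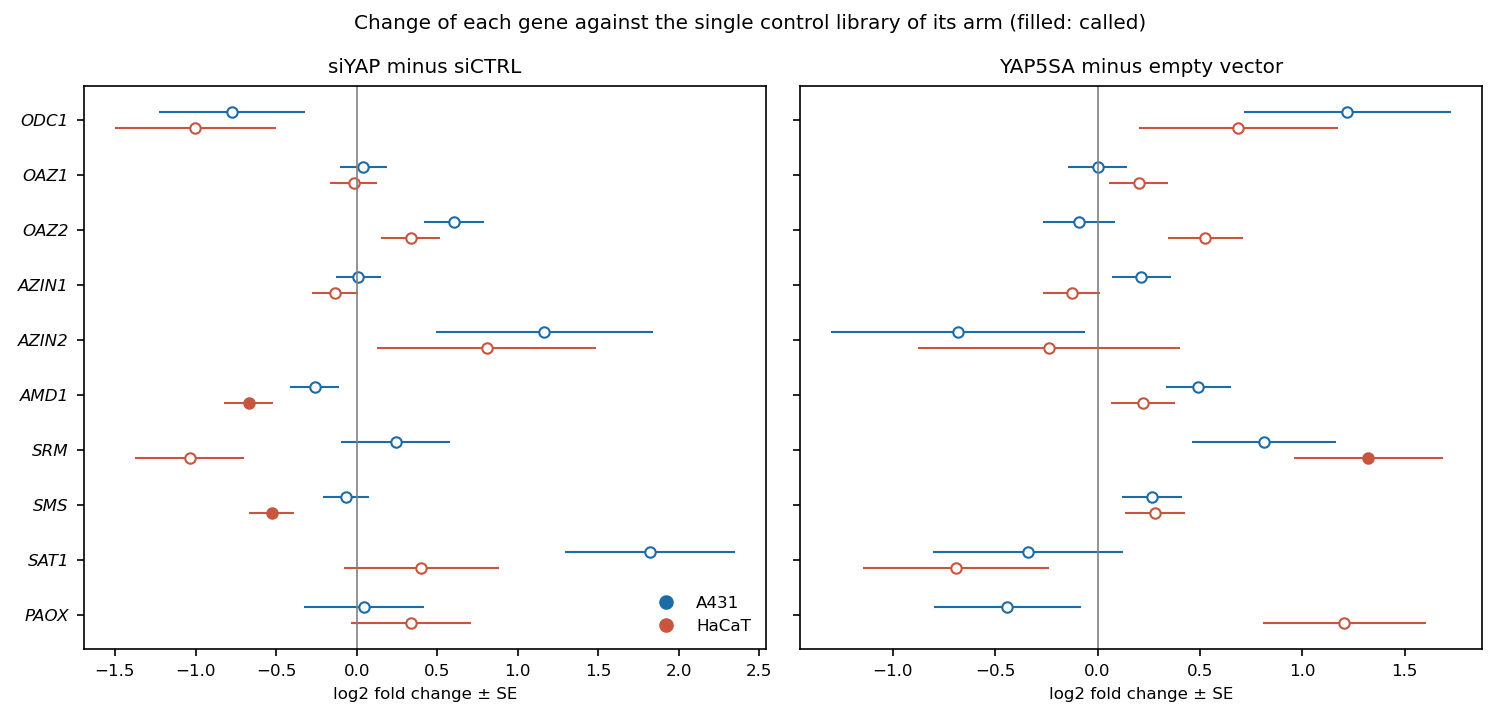
Log2 fold change with its standard error (x axis) of the 10 genes (y axis) for siYAP minus siCTRL on the left and YAP5SA minus empty vector on the right, in blue for A431 and red for HaCaT. Filled points are called: AMD1 at -0.67 and SMS at -0.53 for siYAP and SRM at 1.32 for YAP5SA, all in HaCaT.

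Among the enzymes that build spermidine and spermine, AMD1 was below control in all 6 siYAP libraries. It was at 125 CPM with siCTRL and 107, 106 and 100.5 CPM under siYAP in A431, and at 76.5 CPM and 50.96, 49.9 and 43.6 CPM in HaCaT. The log2 fold change was -0.26 (SE 0.15, FDR 0.345) in A431, -0.67 (SE 0.15, FDR 0.0211) in HaCaT and -0.46 (SE 0.11, FDR 0.0138) over both lines. Without HaCaT siYAP replicate 3 the HaCaT fall was not called (FDR 0.07). With YAP5SA AMD1 was at 123, 152 and 148 CPM against 100.1 CPM with the empty vector in A431, and at 174, 213 and 207 CPM against 169.8 CPM in HaCaT. All 6 lay above the empty vector, by 0.36 (SE 0.11, FDR 0.0993) over both lines, and by 0.44 (SE 0.08, FDR 0.00387) without both libraries numbered 1.

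SRM, spermidine synthase, gave the 1 call of the vector arm. It was at 11.8 CPM with the empty vector and 14.4, 26.0 and 21.5 CPM with YAP5SA in A431, and at 7.42 CPM and 15.8, 15.4 and 24.4 CPM in HaCaT. The log2 fold change was 0.81 (SE 0.35, FDR 0.803) in A431, 1.32 (SE 0.36, FDR 0.0306) in HaCaT and 1.07 (SE 0.25, FDR 0.0497) over both lines. The call over both lines was lost without A431 YAP5SA replicate 2 (FDR 0.0878) or 3 (FDR 0.097) and without HaCaT YAP5SA replicate 3 (FDR 0.073). The HaCaT call was lost without HaCaT YAP5SA replicate 3 (FDR 0.0639) and with each line fitted alone (FDR 0.0589). In the siRNA arm SRM was at 20.1 CPM with siCTRL and 20.2, 26.4 and 24.6 CPM under siYAP in A431, and at 10.7 CPM and 5.96, 5.54 and 4.20 CPM in HaCaT. The A431 libraries lay above their control (0.24, SE 0.34, FDR 0.731) and the HaCaT libraries below theirs (-1.04, SE 0.34, FDR 0.0937), with a difference between lines of -1.28 (SE 0.48, FDR 0.331). The HaCaT fall was called under 4 of 13 other settings. Among these were DESeq2 (FDR 0.04) and the fit to the siRNA libraries alone (-1.05, SE 0.22, FDR 0.00952).

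SMS, spermine synthase, was at 250.3 CPM with siCTRL and 257, 230.3 and 231 CPM under siYAP in A431, which overlap, and at 107 CPM and 71.2, 84.0 and 68.6 CPM in HaCaT. The fall in HaCaT was -0.53 (SE 0.14, FDR 0.0454) on the log2 scale, a call lost without HaCaT siYAP replicate 1 (FDR 0.117) or 3 (FDR 0.128). With YAP5SA SMS was at 275, 309 and 307 CPM against 247 CPM in A431, and at 268, 305 and 299.8 CPM against 239 CPM in HaCaT. All 6 were above the empty vector, and the change of 0.27 (SE 0.10, FDR 0.155) over both lines was not called, against 0.33 (SE 0.09, FDR 0.0253) without both libraries numbered 1.

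On the catabolic side, SAT1 was the gene of the 10 with the widest range of CPM, as a ratio, in A431. It was at 79.5 CPM with siCTRL and at 319, 247 and 275 CPM under siYAP, and in HaCaT at 151 CPM and at 196, 219 and 182 CPM. Every siYAP library was above control, by 1.82 (SE 0.53, FDR 0.0626) in A431 and 0.40 (SE 0.48, FDR 0.711) in HaCaT on the log2 scale. In the fit to the siRNA libraries alone the A431 rise was called (1.82, SE 0.18, FDR 0.000199), and SAT1 was also the 1 gene of 10 whose response was called different between the lines (HaCaT minus A431 -1.43, SE 0.22, FDR 0.00897), where 2.52% of all genes were. In the fit over all libraries that difference was -1.42 (SE 0.67, FDR 0.446).

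With YAP5SA SAT1 was at 129, 39.4 and 51.4 CPM in A431, around an empty vector value of 92.5 CPM, and at 91.5, 87.9 and 56.1 CPM in HaCaT, all below 127 CPM. Replicate 1 of A431 was above the empty vector and the other A431 libraries were below it. The log2 fold change over both lines was -0.52 (SE 0.32, FDR 0.373), and -0.92 (SE 0.17, FDR 0.00387) without both libraries numbered 1.

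PAOX, the acetylpolyamine oxidase, was a low gene here. It was at 2.94 CPM with siCTRL and 2.27, 3.07 and 3.84 CPM under siYAP in A431, and at 3.66 CPM and 4.88, 4.37 and 4.63 CPM in HaCaT. The A431 YAP5SA libraries at 3.53, 2.57 and 2.84 CPM were below an empty vector value of 4.04 CPM, and the HaCaT libraries at 3.95, 2.61 and 2.70 CPM were above 1.34 CPM, the lowest PAOX value of the series and a single library. The HaCaT change of 1.205 (SE 0.40, FDR 0.0587) was not called by edgeR's quasi-likelihood test over all libraries. It was called by DESeq2 (1.21, FDR 0.0288), by edgeR's likelihood ratio test (FDR 0.0273), with the stricter count filter, over 10 in each library (FDR 0.0387), with the replicate block over the YAP5SA libraries (FDR 0.037) and without HaCaT YAP5SA replicate 2 (FDR 0.0432).

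No gene of the 10 was called for a difference between the lines in the effect of a treatment in the fit over all libraries. That count was 0 of 10 for the siYAP effect, where 0.170% of all genes were called, and 0 of 10 for the YAP5SA effect, where 0.0886% were. SRM and SMS had an unadjusted p under 0.05 for the siYAP difference, as did 1690 of 14673 genes. OAZ2 and PAOX did for the YAP5SA difference, as did 3280 of 14673 genes, and DESeq2 called 0 of the 10 for both.

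Within the YAP5SA triplicates the libraries differed in YAP1, with replicate 1 lowest, replicate 3 between and replicate 2 highest in both lines. ODC1, AZIN1, AMD1 and SMS rose in that order in both lines, 4 of 10 genes against 9.45% of all tested genes. PAOX fell in that order in both lines, 1 of 10 against 10.3%. ODC1 went from 53.0 through 125 to 159 CPM in A431 and from 59.0 through 97.3 to 137 CPM in HaCaT. SAT1 fell from 129 through 51.4 to 39.4 CPM in A431, and in HaCaT its middle library was the lowest. This order was noticed after the values were seen, the 3 libraries of a line also share whatever else differs between them, and it is given as a description.

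**Figure D3:**
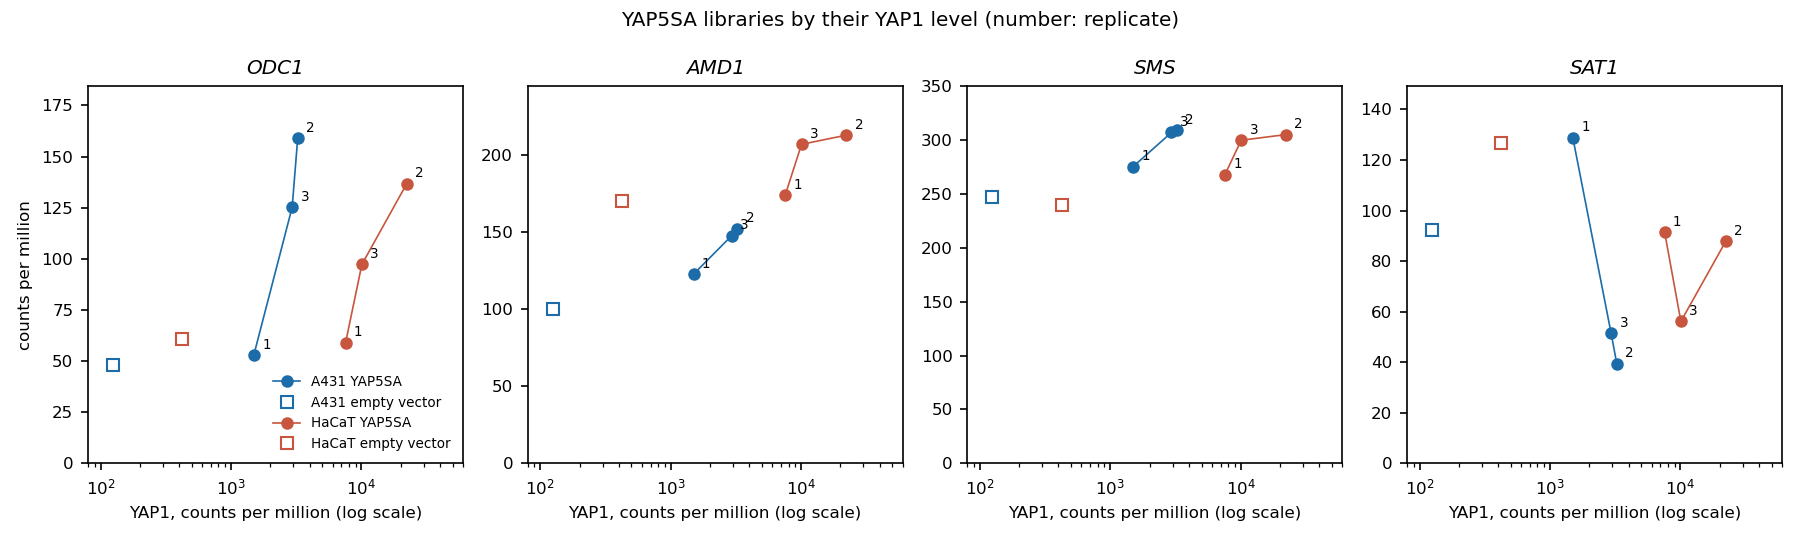
CPM of ODC1, AMD1, SMS and SAT1 (y axes, linear from 0) against YAP1 CPM (x axis, log scale) in the YAP5SA libraries (filled circles joined in YAP1 order, numbered by replicate) and the empty vector library (open square) of each line. ODC1 in replicate 1, at 53.0 CPM in A431 and 59.0 CPM in HaCaT, sits near the empty vector values of 48.3 and 60.7 CPM although YAP1 is far above them.

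The replicated groups can also be set against each other, which crosses the arms. From siYAP to YAP5SA, the triplicates did not overlap for 7 of the 10 genes in A431, where 54.0% of all genes did not, and for 10 of 10 in HaCaT, where 71.8% did not. In A431 7 genes were called against 34.6% of all genes: ODC1, OAZ1, AZIN1, AMD1 and SMS higher (5 of 10, against 20.0%), and AZIN2 and SAT1 lower (2 of 10, against 14.6%). In HaCaT 9 were called against 60.0% of all genes, the same 7 with OAZ2 and SRM higher as well (7 higher against 31.5%, 2 lower against 28.5%). SAT1 fell by 1.94 (SE 0.34, FDR 0.000861) on the log2 scale in A431 and by 1.34 (SE 0.34, FDR 0.00319) in HaCaT. ODC1 rose by 1.303 (SE 0.34, FDR 0.00865) in A431 and by 3.81 (SE 0.38, FDR 1.5e-06) in HaCaT. The A431 count of 7 was 4 without siYAP replicate 2 or 3 and 3 without YAP5SA replicate 2 or 3, with ODC1, AMD1 and SAT1 called each time.

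The control libraries of the arms differed too, most in HaCaT. Between empty vector and siCTRL, ODC1 (2.12, SE 0.62, FDR 0.0145), AMD1 (1.15, SE 0.19, FDR 0.000507) and SMS (1.16, SE 0.18, FDR 0.00029) were called higher and PAOX (-1.45, SE 0.47, FDR 0.0246) lower in HaCaT, 4 of 10 against 39.5% of all genes (21.9% higher and 17.6% lower). In A431 0 of 10 were called (1.17% of all genes), and 0 by DESeq2. OAZ2 had an unadjusted p under 0.05 there, as did 2417 of 14673 genes. These are comparisons of 1 library with 1 library whose error comes from the triplicates. In HaCaT the summed level of 5 fibroblast markers was 21.5 to 27.9 CPM over the siYAP libraries and 0.66 to 1.79 CPM with YAP5SA, and that of 3 endothelial markers went from 59.2 CPM with siCTRL to 2.10 CPM with the empty vector, while COL1A2 and PDGFRB were near 0 throughout. In A431 the fibroblast sum was 11.9 to 14.4 CPM over the siYAP and 2.45 to 4.26 CPM over the YAP5SA libraries, and the endothelial sum went from 33.8 CPM with siCTRL to 5.92 CPM with the empty vector. Their part in the difference between arms was not tested, and arm and treatment cannot be told apart where groups of different arms are compared.

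With every effect taken relative to the control of its own arm, 0 of the 10 genes were called in A431 (1.53% of all genes) and AMD1, SRM and SMS were called higher in HaCaT (3 of 10, against 9.00%). AMD1 was then at 0.89 (SE 0.22, FDR 0.0262), SRM at 2.36 (SE 0.49, FDR 0.0127) and SMS at 0.81 (SE 0.20, FDR 0.0278) on the log2 scale in HaCaT. ODC1 in HaCaT went from 3.81 to 1.69 (SE 0.70, FDR 0.142), and in A431 from 1.303 to 1.99 (SE 0.67, FDR 0.129). SAT1 was at -2.16 (SE 0.68, FDR 0.109) in A431 and -1.09 (SE 0.67, FDR 0.317) in HaCaT. AZIN1 in HaCaT went from 0.43 to 0.0077 (SE 0.20).

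**Figure D4:**
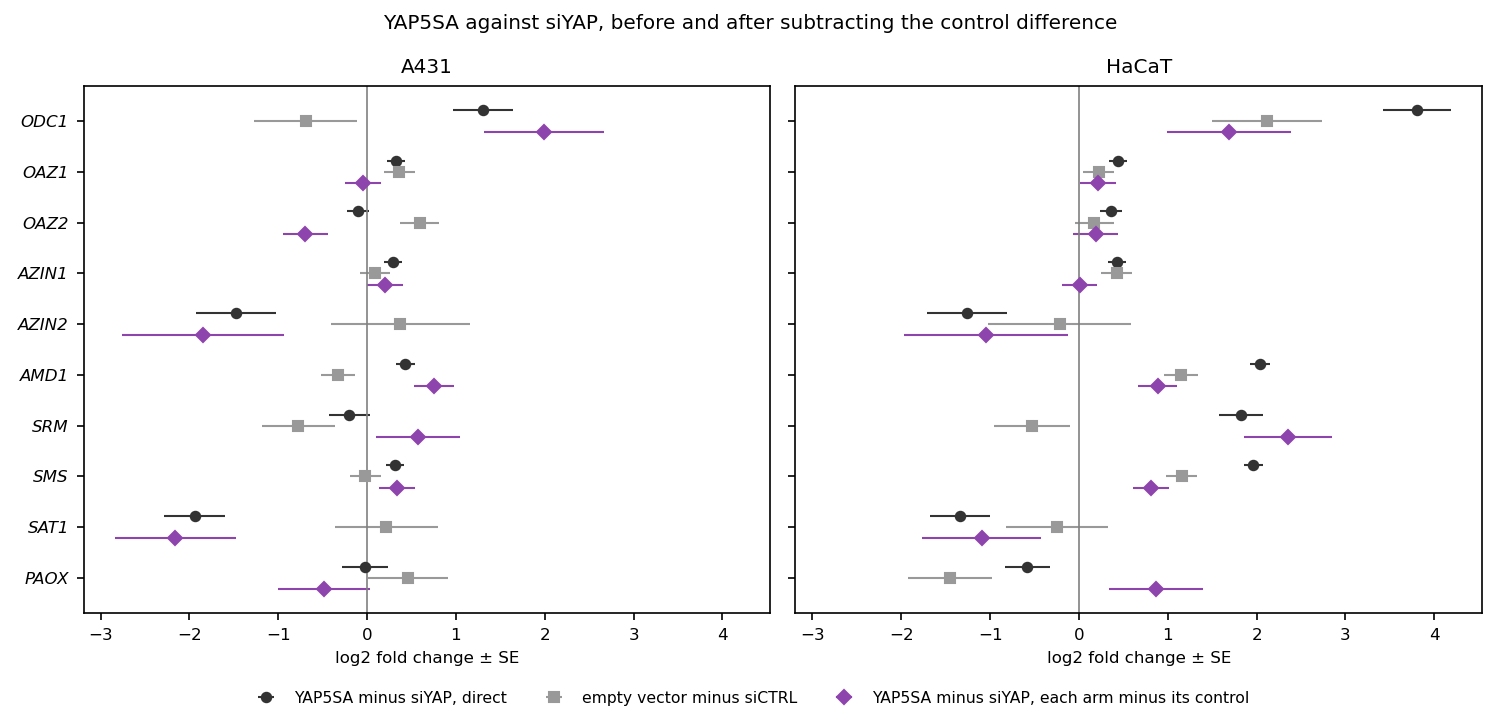
Log2 difference with its standard error (x axis) of the 10 genes (y axis) in A431 (left) and HaCaT (right): YAP5SA minus siYAP taken directly (black circles), empty vector minus siCTRL (grey squares) and YAP5SA minus siYAP with each arm taken relative to its control (purple diamonds). In HaCaT the direct ODC1 difference of 3.81 is accompanied by a control difference of 2.12.

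Between the lines, averaged over the 4 treatments, 6 of the 10 genes were lower in HaCaT and 0 higher, against 33.1% of all genes lower, 27.5% higher and 60.6% in either direction. ODC1 was lower by -1.26 (SE 0.25, FDR 0.000439) on the log2 scale, OAZ1 by -1.23 (SE 0.07, FDR 7.82e-09), SRM by -0.98 (SE 0.17, FDR 0.000193) and SMS by -0.74 (SE 0.07, FDR 8.24e-07). OAZ2 (-0.57, SE 0.09) and AZIN1 (-0.53, SE 0.07) were lower as well. With the YAP5SA libraries alone only OAZ1 and AZIN1 of these stayed called, ODC1 was at -0.20 (SE 0.33, FDR 0.619), and AMD1 was called higher in HaCaT (0.49, SE 0.11, FDR 0.00183). With the siYAP libraries alone AMD1 was called lower (-1.12, SE 0.11, FDR 1.28e-06), and ODC1 (-2.71, SE 0.37, FDR 2.29e-05), SRM (-2.18, SE 0.25, FDR 4.58e-06) and SMS (-1.68, SE 0.10, FDR 1.65e-08) were lower as well. OAZ1, OAZ2 and AZIN1 were also called lower there, and PAOX was called higher in HaCaT (0.61, SE 0.26, FDR 0.0497). The share of all genes called is not given here for either of these comparisons.

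The levels of ODC1 by group ran, from lowest to highest mean, from HaCaT siYAP through HaCaT siCTRL, A431 siYAP, A431 empty vector, HaCaT empty vector, A431 siCTRL and HaCaT YAP5SA to A431 YAP5SA. The last 2 overlapped library by library, and the A431 siCTRL and HaCaT empty vector values lay within the range of both. Over the 16 libraries, after the mean of each line was removed, the log2 CPM of PRPF4 followed that of ODC1 most closely (Pearson r 0.994), then NOP56 (0.992), UTP15 (0.991), UTP11L (0.990) and RRP36 (0.988). Of the other genes of the pathway AMD1 ranked 23 (r 0.980) and SMS 161 (r 0.962), followed by AZIN1 (r 0.911, rank 979), SRM (0.757), OAZ1 (0.716) and OAZ2 (0.256), and AZIN2 (-0.81), SAT1 (-0.71) and PAOX (-0.65) ran the opposite way. Taken within each line, r was -0.54 in A431 and 0.53 in HaCaT for OAZ2, the only one of these genes to change sign. It was 0.32 and 0.84 for SRM and 0.54 and 0.82 for OAZ1. These libraries share arms and lines, and the values describe them only.

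MYC, whose product binds E-boxes, was at 176 CPM with siCTRL and 189.7, 224 and 231 CPM under siYAP in A431, and at 108 CPM and 53.8, 81.9 and 61.2 CPM in HaCaT. The siYAP libraries were thus above control for MYC in A431 and below it in HaCaT (-0.72, SE 0.20, FDR 0.0548), with neither change called. Any part of MYC in the ODC1 levels was not tested. With YAP5SA MYC was at 95.9, 122 and 109.8 CPM against 77.7 CPM in A431 and at 168, 157 and 181 CPM against 117 CPM in HaCaT, above the empty vector in all 6 libraries (0.51, SE 0.15, FDR 0.0864 over both lines). In A431 MYC was lower with the empty vector than with siCTRL (-1.18, SE 0.26, FDR 0.0461). EGFR, amplified in A431, was lower in HaCaT by -1.24 (SE 0.09, FDR 6.09e-08).

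Around these 10 genes, 25 other genes of polyamine metabolism were listed and 22 were tested. For siYAP in A431 2 were called higher and 2 lower (all genes 1.81% and 3.78%), in HaCaT 2 higher and 0 lower (2.37% and 3.30%), and over both lines 3 higher and 2 lower (5.30% and 7.68%), with medians of -0.041, -0.027 and 0.017 on the log2 scale beside 0.029, 0.028 and 0.038 over all genes. EIF5A2, a paralogue of the translation factor that carries the spermidine-derived hypusine, rose by 1.33 (SE 0.21, FDR 0.00441) in A431 and 1.53 (SE 0.23, FDR 0.00205) in HaCaT. SMOX, which oxidises spermine, rose by 0.90 (SE 0.23, FDR 0.0396) in A431, and ATP13A3, a polyamine transporter, by 0.55 (SE 0.12, FDR 0.017) in HaCaT. MAT2A, which makes S-adenosylmethionine, the substrate of AMD1, fell by 1.198 (SE 0.23, FDR 0.0104) in A431 and by 0.89 (SE 0.16, FDR 0.00406) over both lines. ADI1, of the salvage route that returns the by-product of SRM and SMS to methionine, fell by 1.15 (SE 0.29, FDR 0.04) in A431. OAT, which links ornithine to proline and glutamate, was called over both lines (0.47, SE 0.12, FDR 0.0213).

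With YAP5SA, 0 of these 22 genes were called in A431 (0% of all genes), 4 higher and 1 lower in HaCaT (6.99% and 6.64%), and 2 higher over both lines (1.38%). The medians were 0.19, 0.14 and 0.16 beside 0.020, 0.013 and 0.034 over all genes. DOHH, the last enzyme of hypusine synthesis, rose by 1.58 (SE 0.46, FDR 0.0367) in HaCaT, EIF5A2 by 1.55 (SE 0.22, FDR 0.00239) and SMOX by 1.37 (SE 0.23, FDR 0.00516), while MAT2B, the regulatory partner of MAT2A, fell by 0.74 (SE 0.15, FDR 0.0105). EIF5A2 and SMOX were thus called higher in HaCaT with YAP5SA, and in the mean over both lines in both arms. Neither was called with YAP5SA in A431, and a mean over the lines can come from 1 of them. For SMOX with YAP5SA that mean was 0.65 (SE 0.16, FDR 0.0499), beside 1.37 in HaCaT. EIF5A2 in HaCaT was at 8.41 CPM with siCTRL and 23.9, 26.4 and 22.7 CPM under siYAP, and at 21.1 CPM with the empty vector and 50.1, 75.9 and 59.6 CPM with YAP5SA, so that all treated libraries of both arms were above their controls.

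From siYAP to YAP5SA 5 of the 22 were called higher and 6 lower in A431 (20.0% and 14.6% of all genes), and 12 higher and 5 lower in HaCaT (31.5% and 28.5%), with medians of -0.067 and 0.504 beside -0.033 and -0.059 over all genes. In A431 ADI1 (1.72), SLC3A2 (0.92), the heavy chain of amino acid transporters, and EIF5A (0.89) had the largest rises on the log2 scale, and SAT2 (-0.69), DHPS (-0.59) and EIF5A2 (-0.47) the largest falls. In HaCaT SLC3A2 (2.39), EIF5A (1.58) and EIF5A2 (1.35) led the rises and AGMAT (-1.94), SAT2 (-1.26) and MAT2B (-0.71) the falls. The HaCaT controls differed in 8 higher and 3 lower of these genes (21.9% and 17.6% of all genes), led by SLC3A2 (2.04), OAT (1.68) and EIF5A2 (1.32) on the higher side and ATP13A2 (-1.10), ARG2 (-1.01) and MRI1 (-0.71) on the lower, and 0 were called in A431 (1.17%). Between the lines 6 were higher and 10 lower in HaCaT (27.5% and 33.1% of all genes), with MRI1 (1.11), SAT2 (0.81) and ADI1 (0.61) highest and AGMAT (-4.69), MTAP (-1.47) and EIF5A2 (-1.44) lowest. For both line-by-treatment differences 0 of the 22 were called (0.170% and 0.0886% of all genes).

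Degradation of ornithine decarboxylase was followed through 34 proteasome genes, not all of which code for subunits, and NQO1, 35 genes that were all tested. The product of NQO1 shields the enzyme from the proteasome. With siYAP 31 of 35 had a log2 fold change below zero in each line, with medians of -0.20 in A431 and -0.27 in HaCaT beside 0.029 and 0.028 over all genes, but 0 were called lower in A431 (3.78% of all genes) and 1 in HaCaT (PSMD10, -0.73, SE 0.14, FDR 0.00965, against 3.30%). Over both lines PSMD10 (-0.44), PSMD7 (-0.39) and PSMA5 (-0.38) were called lower, 3 of 35 against 7.68%. With YAP5SA 34 of 35 lay above zero in A431 (median 0.28, all genes 0.020), 0 of them called, whereas 26 of 35 lay below zero in HaCaT (median -0.21, all genes 0.013), where PSMA4 (-0.55), PSMD7 (-0.52) and PSMD10 (-0.46) were called lower, 3 of 35 against 6.64%. Over both lines 0 were called with YAP5SA (2.04% of all genes) and 0 for either line-by-treatment difference (0.170% and 0.0886%).

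All 35 were called higher from siYAP to YAP5SA in both lines, where 20.0% of all genes were in A431 and 31.5% in HaCaT, led by PSMC3 (1.56), NQO1 (1.496) and PSMC4 (1.15) in A431 and by PSMD14 (2.42), PSMD2 (2.41) and PSMA3 (2.03) in HaCaT. In HaCaT 32 of 35 were also called higher in the empty vector than in the siCTRL library, against 21.9% of all genes, led by PSMD14 (2.27), PSMD1 (2.12) and NQO1 (2.09), with a median of 1.47 beside 1.48 for the direct comparison (all genes -0.031 and -0.059). In A431 the controls gave 0 calls (1.17% of all genes) and a median of 0.36 beside 0.76 (all genes 0 and -0.033). Between the lines 10 were higher in HaCaT (27.5% of all genes), led by PSMA2 (0.95), PSMD1 (0.82) and PSMC5 (0.64), and 10 lower (33.1%), led by PSMB2 (-0.78), NQO1 (-0.57) and PSMB1 (-0.52).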

How the data were processed

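The authors assigned trimmed paired reads to RefSeq genes by RSEM and deposited 1 table of estimated counts per gene, unscaled and unfiltered. The submitters' processing notes name RSEM 1.2.11 and build hg19, and the paper's methods name a different RSEM release. After rounding, they entered edgeR 4.0.16 under R 4.3.3 (TMM factors 0.914 to 1.07, mean above 10 counts, prior count 0.125, 8 groups, 8 residual degrees of freedom), with DESeq2 1.42.0 as an alternative. SE is the log2 fold change over the root of the quasi-likelihood F. The test was also run on simulated data with known siYAP changes. Every gene and group there had the same dispersion, so spread that differs between groups, as seen here for ODC1, was not covered. Python 3.11.15 was used for summaries and figures.

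The 10 genes and the other lists were chosen with earlier results of these data known. Named genes were the 10, YAP1, EGFR and MYC as checks, the called genes of the other lists with the 3 largest rises and falls in each comparison, and the 5 genes most like ODC1. Other genes were cell type markers, of which 1 is not reported here. Of same-numbered libraries, those of A431 and HaCaT YAP5SA deviated together weakly (r 0.280, 0.116 and 0.101). This pairing comes from the data only. Every pair of libraries within a triplicate differed by more than sampling noise. Fits to the siRNA libraries alone, without the YAP5SA libraries numbered 1 and with a block over YAP5SA libraries were chosen after seeing the data. The table has 28 symbols turned into dates and 4 that share a name, none named here.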

Additional observations from a re-analysis of the deposited data

Results flagged for a closer look

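For 3 genes every treated library of A431 moved to one side of its control and every treated library of HaCaT to the other, as did 14.5% of all 14673 tested genes with siYAP (1 of the 10 genes) and 18.9% with YAP5SA (2 of the 10). SRM did so with siYAP, where the HaCaT minus A431 difference was -1.28 on the log2 scale (SE 0.48, FDR 0.331 in edgeR's quasi-likelihood test). AZIN1 did so with YAP5SA (-0.34, SE 0.20, FDR 0.33), and PAOX with YAP5SA (1.65, SE 0.53, FDR 0.111). None of these differences passed the threshold. Each side rests on 1 control library, and for PAOX the HaCaT empty vector library was the lowest of all 16. The siYAP effect on SAT1 differed between the lines in the fit to the siRNA libraries alone (-1.43, SE 0.22, FDR 0.00897) and not in the fit over all libraries. Groups of 3 are too small for a test of single outlying libraries.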

How the results depend on the processing

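Values are counts of the 10 genes called. For siYAP in A431 the 0 became 2 with DESeq2, the likelihood ratio test or a replicate block, 1 without a count filter or with siCTRL and empty vector as 2 controls, and 4 with the siRNA libraries alone. In HaCaT the 2 became 1 with RLE size factors or no count filter, 0 with each line fitted alone, 6 with 2 controls and 4 with the siRNA libraries alone. It was 0 to 2 with a library left out, with 1 without replicate 1 and 0 without replicate 3. Over both lines the 2 became 4 with the likelihood ratio test and 6 with 2 controls or the siRNA libraries alone, and 1 to 2 with a library left out (1 without A431 replicate 1 or 2 or HaCaT replicate 1).

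For YAP5SA in A431 the 0 became 3 without both libraries numbered 1. In HaCaT the 1 became 3 with DESeq2, 2 with more than 10 counts in every library, the likelihood ratio test or a replicate block, 0 with each line fitted alone, 6 with 2 controls, and 4 with the block over YAP5SA libraries or without both libraries numbered 1. With a library left out it was 0 to 2 (2 without replicate 2, 0 without replicate 3). Over both lines the 1 became 6 with 2 controls, 3 with the block over YAP5SA libraries and 6 without both libraries numbered 1, and 0 to 4 with a library left out (4 without A431 replicate 1, 3 without HaCaT replicate 1, 0 without A431 replicate 2 or 3 or HaCaT replicate 3).

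For YAP5SA against siYAP with each arm relative to its own control, the 7 in A431 became 0 and the 9 in HaCaT became 3, and the A431 count was 3 to 7 with a library left out (4 without siYAP replicate 2 or 3, 3 without YAP5SA replicate 2 or 3). The siYAP difference between lines went from 0 to 1 with the siRNA libraries alone, and HaCaT against A431 from 6 to 3 with the YAP5SA libraries alone. Of 1250 single-gene values under settings other than a left-out library, 1147 kept their side of the threshold and, where called, their direction (19 uncalled values changed sign), 23 lost and 77 gained a call and 3 reversed: OAZ1 from siYAP to YAP5SA in A431 (-0.041 with each arm relative to its control, against 0.32), and, between the lines, AMD1 (0.49 with YAP5SA libraries alone, against -0.14) and PAOX (0.61 with siYAP libraries alone, against -0.15). Of 600 values with a library left out, 556 did (19 uncalled values changed sign). Same-numbered siYAP libraries of the lines correlated at 0.0362, 0.117 and 0.178, not all above 0.1, so their numbers were not taken as pairs, although each A431 siYAP library correlated best with its own number in HaCaT, as a hint from the data; for YAP5SA (0.280, 0.116 and 0.101) A431 replicate 2 correlated best with HaCaT replicate 3. With the block over all treated triplicates SAT1 was called higher for siYAP in A431 (1.82, FDR 0.0327) with OAZ2 (FDR 0.048), and over both lines (FDR 0.0283) beside OAZ2 and AMD1. Beyond these and the block results given above, its counts were within 1.5 times. The cause of these changes was not tested. A count of 0 allows up to 3 counts, 0.0641 to 0.166 CPM here, for counting error only.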
